A study of Rattus norvegicus with 125 samples.

Results

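The claudins that line the paracellular ion paths of the nephron were followed along the rat kidney tubule. They are Cldn2, Cldn10 and Cldn15, which form pores, Cldn16 and Cldn19, which serve the path of divalent cations, and Cldn14, which restrains that path. Members were chosen by symbol, and each of the 6 has 1 transcript entry among the 17144 gene symbols of the deposited segment table, which lists 22 claudins. None of the 6 overlaps another gene in the RefSeq annotation of GRCr8. Because Cldn10 has a single entry, its anion-selective and cation-selective isoforms could not be told apart.

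Claudins are membrane proteins of the tight junction, the seal between neighbouring epithelial cells, and the claudins of a junction set which ions pass between the cells. In the proximal tubule and thin descending limb, claudin-2 forms a path for sodium and water. In the thick ascending limb, claudin-10b carries sodium, claudin-16 and claudin-19 together are needed to reclaim calcium and magnesium, and claudin-14 blocks them when the calcium-sensing receptor Casr is activated. Loss of claudin-16 or claudin-19 in patients causes renal wasting of magnesium and calcium.

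RNA was sequenced from tubule segments dissected by hand after collagenase digestion of the left kidney of adult male Sprague-Dawley rats weighing 200 to 250 g, given no treatment that the labels name. The libraries came from 14 segments. These were the proximal tubule parts S1, S2 and S3 (7 libraries each), the short descending limb (SDL, 10), the long descending limb in the outer medulla (LDLOM, 9) and inner medulla (LDLIM, 4), the thin ascending limb (tAL, 7), the medullary and cortical thick ascending limbs (mTAL and cTAL, 7 each), the distal convoluted tubule (DCT, 8), the connecting tubule (CNT, 6), and the cortical, outer medullary and inner medullary collecting ducts (CCD, 11; OMCD, 7; IMCD, 8). Another 5 libraries came from glomeruli of adult male rats of the same strain, whose treatment is not stated clearly by the labels. In a separate experiment, cortical collecting ducts came from male Sprague-Dawley rats, 5 weeks old, that all received the vasopressin analogue dDAVP at 5 ng/hr by minipump. Over 4 days, 4 controls got 25 mL of water a day in gelled food and 4 water-loaded rats got 50 mL. The segment labels number replicates without saying that they are different rats, so p-values there measure the spread between libraries, which may be partly technical.

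All values are RPKM, a read level corrected for transcript length and library size. How levels of different genes compare depends on which deposited table is read, as described at the end. Read counts were not among the files used, so the absolute depth is unknown. Relative depth, estimated from the most frequent ratio between low values of 2 libraries, spanned 14.2-fold over the tubule libraries. Between 1438 and 8574 genes reached 1 RPKM in a tubule library, and 14 tubule libraries had fewer than 2500. By median sum, marker lists were highest in their own segments or structures, apart from the leukocyte list, and 3 libraries that touch the claudins stood apart. The tAL libraries 1 and 2 held endothelial marker sums (Pecam1, Cdh5, Emcn and Kdr) of 2315 and 2631 RPKM against 0.402 to 7.11 in the other 5. Emcn made up most of these sums, with 1971 and 2505 RPKM, while Kdr, the main receptor for vascular endothelial growth factor, was at 4.65 and 0.0576 RPKM. The LDLOM library 1 held Slc34a1, a phosphate carrier of the proximal tubule, at 2329 RPKM and Slc4a1, the anion exchanger of intercalated cells, at 551 RPKM. In bulk libraries like these, fewer cells of a type and less RNA per cell cannot be told apart.

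Along the tubule, the 6 genes followed different maps. Cldn2 was highest in LDLOM, Cldn10 in both thick limbs, Cldn16 in cTAL, and Cldn19 in the thick limb, SDL, DCT and the collecting duct down to OMCD, while Cldn14 and Cldn15 were listed at or near 0 in most tubule libraries. Between segments that follow each other, 11 of 90 tests of a member passed an adjusted p of 0.05 with a log2 difference of at least 1, or 12.2%, against 2.73% of the tests of all genes over the same 15 steps. Over all 91 pairs of segments, 157 of 546 member tests passed (28.8%), against 6.62% for all genes. The counts were 38 pairs for Cldn2, 37 each for Cldn10 and Cldn16, 26 for Cldn19, 11 for Cldn15 and 8 for Cldn14. Cldn14 and Cldn15 each passed the filter on low values through 5 libraries, so their counts carry no weight. Without the tAL libraries 1 and 2 there were 11 step calls and 160 pair calls, and without the LDLOM library 1 there were 11 and 166.

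**Figure D1:**
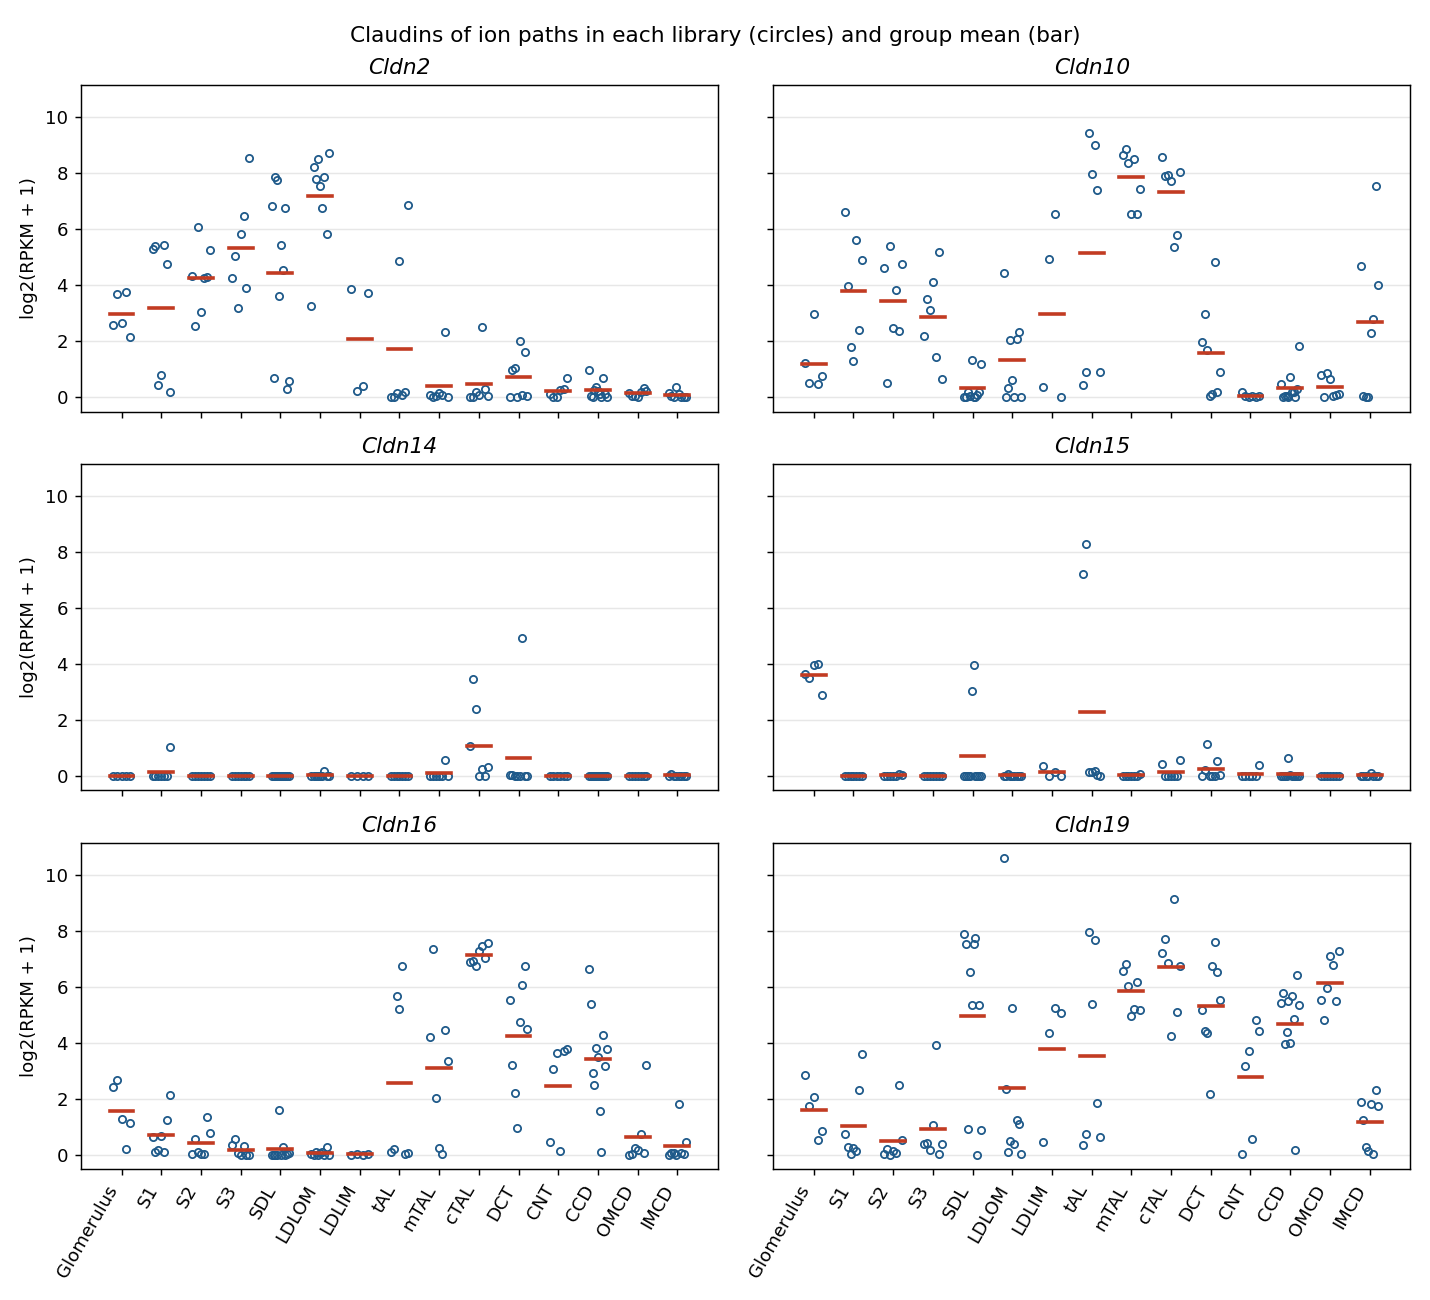
Levels of the 6 claudins as log2(RPKM + 1) (vertical axis) in each library (circles) of the glomerulus and 14 tubule segments (horizontal axis), with the group mean as a bar. Cldn16 lies between 107 and 188 RPKM in all 7 cTAL libraries in this table, whereas Cldn2, Cldn10 and Cldn19 scatter widely within most segments that hold them.

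Cldn2, the sodium and water pore, was highest by median in the proximal tubule, SDL and LDLOM. In S1 it ranged from 0.131 to 41.8 RPKM with a median of 25.9, in S2 from 4.75 to 65.5 (median 18.4), and in S3 from 7.96 to 366 (median 31.6). Levels in SDL spanned 0.203 to 232.7 RPKM (median 32.0), and in LDLOM 8.53 to 422.5 (median 221.6), the lowest value being library 1, described above. The LDLIM libraries held 13.6, 0.162, 0.3204 and 12.2 RPKM. From mTAL onward no library exceeded 4.69 RPKM, and medians lay at or below 0.483 RPKM.

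Within the long descending limb, Cldn2 fell from a mean of 209.8 ± 138 RPKM (SD, n = 9) in LDLOM to 6.57 ± 7.34 (n = 4) in LDLIM. The difference on the log2(RPKM + 1) scale was -5.11 ± 1.02 (SE; adjusted p = 0.000565, limma). At this step 2.71% of all genes passed. The groups overlapped only through LDLOM library 1. With only these 2 groups fitted, the adjusted p was 0.116. In tAL, which follows LDLIM, the mean was 20.3 ± 42.7 RPKM (n = 7), set by libraries 4 and 7 with 27.6 and 114 RPKM. In short nephrons, between SDL and mTAL, Cldn2 fell by 4.05 ± 0.84 on the log2 scale (adjusted p = 0.000606; 3.88% of all genes passed). No other step called Cldn2, and none of the 13 neighbours in the order of its levels (LDLOM, S3, SDL, S2, S1, LDLIM, tAL, DCT, cTAL, mTAL, CCD, CNT, OMCD, IMCD) differed beyond their spread. LDLOM lay above 11 of the 13 other segments, S3 and SDL being the exceptions.

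Cldn10, the claudin of sodium transfer in the thick limb, was high in all 14 thick limb libraries. The mTAL libraries ranged from 91.6 to 468.7 RPKM (median 325) and the cTAL libraries from 40.1 to 377 (median 236). In SDL the highest library held 1.495 RPKM and the median was 0.0341. From SDL to mTAL, Cldn10 rose by 7.55 ± 0.91 on the log2 scale (adjusted p = 8.9e-10), where 3.88% of all genes passed. From cTAL to DCT it fell by 5.76 ± 0.96 (adjusted p = 1.5e-05), where 0.849% of all genes passed. The DCT libraries ranged from 0.00724 to 27.5 RPKM. Between mTAL and cTAL the difference was -0.52 ± 0.99 (adjusted p = 0.91), a step at which 1.03% of all genes passed.

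Lower Cldn10 levels were found at both ends of the tubule. The proximal medians were 14.7 RPKM in S1 (1.401 to 96.4), 13.2 in S2 (0.402 to 40.9) and 7.51 in S3 (0.556 to 35.2). The step from S3 to SDL gave -2.57 ± 0.91 (adjusted p = 0.066) and passed under 5 of the alternatives, with adjusted p of 0.011 at a pseudocount of 0.1. In IMCD the 8 libraries split, with 186, 24.6, 14.8, 5.92 and 3.80 RPKM in 5 libraries and at most 0.0194 in 3. The difference from OMCD, 2.31 ± 0.96, missed the threshold (adjusted p = 0.13). LDLIM held 0.284, 29.1, 91.6 and 0.00576 RPKM. The order of levels was mTAL, cTAL, tAL, S1, S2, LDLIM, S3, IMCD, DCT, LDLOM, OMCD, CCD, SDL and CNT. No neighbours in it differed beyond their spread, and mTAL lay above 11 of the 13 others, all but cTAL and tAL.

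The divalent path claudin Cldn16 was highest in cTAL, with 116, 121, 107, 156, 174, 129 and 188 RPKM in the 7 libraries (141.7 ± 31.4, SD). In the other deposited table the same libraries ranged from 42.0 to 414 RPKM (241.6 ± 123.7). In mTAL the values were 17.5, 163.5, 3.10, 0.186, 0.0126, 21.1 and 9.19 RPKM. Only mTAL library 2 reached the range of cTAL. It also had the highest Umod (uromodulin, the main secreted protein of the thick limb) of the mTAL libraries, 9269 RPKM against 339 to 3317. The thick limb markers Slc12a1 and Ptger3 were highest in mTAL library 4, at 457 and 140 RPKM. Casr was highest in library 3, at 66.2 RPKM. In library 2 these were at 431, 61.2 and 28.3 RPKM. Cldn16 rose by 4.03 ± 0.81 from mTAL to cTAL (adjusted p = 0.000844). Without the libraries under 2500 genes the rise was 2.82 with an adjusted p of 0.13. From SDL, where 6 of 10 libraries were listed at 0 and the highest held 1.99 RPKM, to mTAL it rose by 2.91 ± 0.75 (adjusted p = 0.0099, and 0.097 with only these groups fitted).

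Distal to cTAL, Cldn16 stayed measurable as far as the cortical collecting duct. DCT ranged from 0.939 to 106.9 RPKM (median 23.8), CNT from 0.0821 to 12.7 (median 9.41) and CCD from 0.0652 to 98.7 (median 10.2). From cTAL to DCT it fell by 2.88 ± 0.79 on the log2 scale (adjusted p = 0.046). It lost its call under 5 alternatives, with adjusted p between 0.074 and 0.60. OMCD followed with 6 libraries at or below 0.644 RPKM and 1 at 8.14. From CCD to OMCD it fell by 2.79 ± 0.74 (adjusted p = 0.028), where 1.3% of all genes passed and the median over all genes was -0.59. It too lost its call under 5 alternatives, and under quantile normalization it was -1.24 (adjusted p = 0.63).

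Thick limb markers were present in the distal libraries as well. The summed level of Slc12a1, Umod, Kcnj1 and Ptger3, with none of the 4 at 0 throughout a group, ranged from 2.36 to 115 RPKM in CCD and from 237 to 1862 in DCT, against 2173 to 18220 in cTAL. Of these genes, Kcnj1 was not confined to the thick limb, with a mean of 23.9 RPKM in OMCD. The CCD libraries with the most Cldn16, libraries 1 and 2 with 98.7 and 41.1 RPKM, had Slc12a1, the sodium-potassium-chloride cotransporter, at 0.572 and 0 RPKM and Umod at 0.170 and 0.0411 RPKM. In the other deposited table, described at the end, these libraries held 12.6 and 3.83 RPKM of Cldn16, and the highest CCD values were those of libraries 5 and 6, 26.1 and 20.7 RPKM. Libraries 5 and 6 had the most Umod (73.3 and 50.2 RPKM) and Slc12a1 (2.69 and 2.07 RPKM) of CCD. The highest Ptger3 and Casr values of CCD lay elsewhere. Ptger3 was at 3.85 and 1.17 RPKM in libraries 5 and 6, against 28.9 RPKM in library 11. Casr was at 15.9 and 14.1 RPKM in them, against 32.6 RPKM in library 4. The part of thick limb RNA in the CCD and DCT levels of Cldn16 was not tested.

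Among the 6 claudins, Cldn16 had the only called neighbours in the order of levels, 1 of 78. These were cTAL and DCT. The full order was cTAL, DCT, CCD, mTAL, tAL, CNT, S1, OMCD, S2, IMCD, SDL, S3, LDLOM and LDLIM. Cldn16 was higher in cTAL than in each of the 13 other segments, and in 11 to 13 of them under the alternatives, a count added after the data were seen.

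Cldn19, the partner of Cldn16, had the widest distribution. In cTAL it ranged from 17.7 to 557 RPKM (median 113), in mTAL from 30.3 to 111 (median 63.5), in DCT from 3.53 to 192.6 (median 39.7), and in OMCD from 26.9 to 155 (median 60.7). It was low in the proximal tubule, with medians of 0.195, 0.0824 and 0.315 RPKM in S1, S2 and S3. SDL ranged from 0 to 234.6 RPKM (median 65.5). From S3 to SDL it rose by 4.06 ± 1.03 (adjusted p = 0.0037, where 7.52% of all genes passed). At the end of the collecting duct, between OMCD and IMCD, it fell by 4.96 ± 1.08 (adjusted p = 0.000551, where 7.47% passed). The IMCD libraries held 0.0177 to 3.96 RPKM.

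In SDL, where both the sodium pore and Cldn19 were found, the libraries differed in which they held. At a level of 10 RPKM, 5 of 10 libraries held both Cldn2 and Cldn19, 2 held only Cldn2, 2 only Cldn19 and 1 neither. Library 3 had 232.7 RPKM of Cldn2 and 0.874 of Cldn19. Library 2 had 0.575 of Cldn2 and 184 of Cldn19. Endothelial marker sums in these were 2.81 and 129.5 RPKM, within a range of 0 to 347.8 over SDL, and their part was not tested.

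A single library set the LDLOM mean of Cldn19. Library 1 held 1572 RPKM, while the other 8 held 0.00932 to 36.9 and the median was 1.14. This is the library with Slc34a1 and Slc4a1, so the mean of 179.6 RPKM does not describe the segment. The order of mean log2 levels was cTAL, OMCD, mTAL, DCT, SDL, CCD, LDLIM, tAL, CNT, LDLOM, IMCD, S1, S3 and S2. No neighbours in it differed beyond their spread, and cTAL lay above LDLOM, IMCD and the 3 proximal parts.

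Cldn14, the claudin that blocks the divalent path, reached 1 RPKM in 5 tubule libraries. They were the cTAL libraries 1, 2 and 3 with 1.09, 10.1 and 4.25 RPKM, the DCT library 6 with 29.6 and the S1 library 7 with 1.04. The other cTAL libraries held 0, 0.165, 0 and 0.224 RPKM, and all glomerulus, S2, S3, SDL, LDLIM, tAL, CNT, CCD and OMCD libraries were listed at 0. Casr, whose activity raises Cldn14 in the thick limb, was at 546, 509.7 and 259 RPKM in the cTAL libraries with Cldn14 and at 332, 357, 15.9 and 138 in the other 4. The step from mTAL to cTAL gave 0.98 ± 0.32 (adjusted p = 0.14) and reached 0.028 at a pseudocount of 0.1. The remaining segments with any value, mTAL, LDLOM and IMCD, held at most 0.475 RPKM, and the order of segments is not resolved. Between cTAL and DCT the difference was -0.44 ± 0.31 (adjusted p = 1), while the means ran the other way, 2.25 and 3.71 RPKM.

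Cldn15, a sodium pore best known from the intestine, was measured in all 5 glomeruli at 11.3, 10.3, 14.6, 14.97 and 6.36 RPKM. It was listed at 0 in every S1 library, and the difference passed (adjusted p = 3.9e-07) in a comparison where 43.9% of all genes passed and the median of all genes was 1.60 higher in glomeruli. In tubules it reached 1 RPKM in 5 libraries, the tAL libraries 1 and 2 (146 and 308), the SDL libraries 5 and 6 (7.17 and 14.6) and the DCT library 3 (1.21). The other tAL libraries held at most 0.117 RPKM. The call from tAL to mTAL (-2.27 ± 0.54, adjusted p = 0.0036, where 6.34% passed) rests on those 2 libraries, without which Cldn15 no longer passes the filter and was not tested. Endothelial marker sums were 408 to 980 RPKM in the glomeruli and 134 and 14.7 in the SDL libraries 5 and 6. The SDL libraries 10, 1 and 2 had sums of 347.8, 138.1 and 129.5 RPKM with Cldn15 listed at 0. In the tAL libraries 1 and 2, Cldn5, a claudin of endothelial cells, was at 0.150 and 0.0527 RPKM. Kdr was at the low values given above. In the glomeruli Cldn5 held 473 to 1263 RPKM and Kdr 55.6 to 118.9 RPKM, beside podocyte marker sums of 926 to 3658 RPKM. Which glomerular cells gave the Cldn5 was not tested. Podocyte marker sums in the tAL libraries 1 and 2 were 189 and 88.9 RPKM, against at most 1.56 in the other tAL libraries. Cdh5 was at 196 and 121 RPKM in these 2 tAL libraries and Pecam1 at 143 and 4.89 RPKM. In the glomeruli Cdh5 ranged from 71.3 to 160.2 RPKM and Pecam1 from 1.18 to 41.7 RPKM. Emcn, at 258 to 659 RPKM in the glomeruli, was higher in both of these tAL libraries. The part of endothelial RNA in the Cldn15 values was not tested. The tubule order was led by tAL, SDL and DCT, and no neighbours in it differed beyond their spread.

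Cldn2 was also measured in every glomerulus library, at 4.87, 11.7, 5.21, 12.5 and 3.42 RPKM, which overlaps the range of Cldn15. Its difference from S1 was -0.22 ± 0.97 (adjusted p = 0.88). Cldn10 held 1.29, 0.416, 6.69, 0.361 and 0.655. Cldn16 ranged from 0.139 to 5.37 RPKM and Cldn19 from 0.446 to 6.16. From S1 to glomeruli Cldn10 fell by 2.63 ± 1.06 (adjusted p = 0.036), a call that was lost when glomerulus 1, 2, 4 or 5 was left out (adjusted p of 0.056 to 0.076) and at a pseudocount of 0.1 (0.051). Umod, at 0.457 to 276 RPKM, and a proximal marker sum of 24.1 to 57.3 RPKM were present in the glomeruli, and their part in these values was not tested. By mean level, the 6 genes made up 2.60% of the RPKM of the 22 claudins there, where Cldn5 had a mean of 930 RPKM.

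As a share of all 22 claudins, by group means, the 6 made up 60.3%, 68.2% and 51.5% in S1, S2 and S3, 80.0% in mTAL, 86.9% in cTAL, 38.8% in DCT and 4.71% in IMCD. In cTAL, Cldn10 contributed 34.1%, Cldn19 28.4% and Cldn16 23.8%, an order that depends on the table, since in the other one Cldn19 had a cTAL mean of 359 RPKM and Cldn10 of 350.4. In mTAL, Cldn10 alone gave 59.5%. The leading claudin was Cldn8 in CNT, CCD and OMCD and Cldn4 in LDLIM, tAL and IMCD.

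The balance of divalent to sodium path claudins was compared within each thick limb library as log2((RPKM + 1) / (Cldn10 RPKM + 1)), in which the scaling of the library largely cancels. For Cldn16 the mTAL ratios were -4.43, -1.51, -6.31, -6.31, -8.50, -2.07 and -4.08. Those of cTAL were -1.69, -0.96, -1.18, -0.42, 2.09, 1.24 and -0.48. The ratio was 4.54 higher in cTAL (mean -0.20 ± 1.37, SD) than in mTAL (-4.74 ± 2.49), with p = 0.0012 in a two-sided exact permutation test over 3432 arrangements, whose smallest possible p is 0.00058. Only the highest mTAL value reached the range of cTAL, and Cldn16 exceeded Cldn10 in 2 of 7 cTAL and 0 of 7 mTAL libraries. These were cTAL libraries 5 and 6. In the other deposited table they were cTAL libraries 4 and 5 (377.2 and 414.1 RPKM of Cldn16 against 359.4 and 69.3 of Cldn10). There, library 6 held 42.0 RPKM of Cldn16 against 93.8 of Cldn10.

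**Figure D2:**
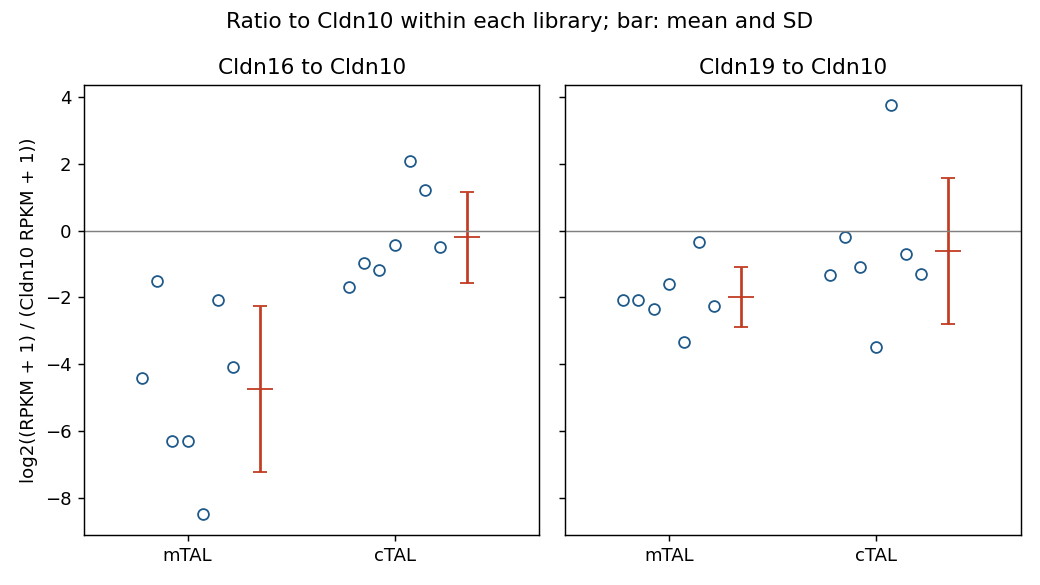
Log2 ratio of Cldn16 (left) and Cldn19 (right) to Cldn10 within each of the 7 mTAL and 7 cTAL libraries (circles; the vertical axis is a log2 ratio of RPKM + 1), with mean and SD as a bar. The Cldn16 ratio averages -4.74 in mTAL and -0.20 in cTAL, while the Cldn19 ratios overlap.

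For Cldn19 the ratio to Cldn10 averaged -1.999 ± 0.90 in mTAL (-3.33 to -0.35) and -0.62 ± 2.19 in cTAL (-3.49 to 3.76). The difference of 1.38 was within the spread (exact permutation p = 0.14). Both ratios share Cldn10. Adjusted over both by Benjamini-Hochberg, the exact permutation p was 0.0023 for Cldn16 and 0.14 for Cldn19.

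The sequences before the transcription starts of Cldn10 and Cldn16 are shown because Cldn10 was high in both thick limb segments, whereas Cldn16 rose from mTAL to cTAL. They are the 250 bases upstream of the RefSeq start in GRCr8, read 5′ to 3′ on the gene's strand, Cldn10 at chr15:102269608-102269857 (plus strand) and Cldn16 at chr11:87814397-87814646 (minus strand). Capitals mark a match to the CCAAT box, here on the opposite strand.
Cldn10: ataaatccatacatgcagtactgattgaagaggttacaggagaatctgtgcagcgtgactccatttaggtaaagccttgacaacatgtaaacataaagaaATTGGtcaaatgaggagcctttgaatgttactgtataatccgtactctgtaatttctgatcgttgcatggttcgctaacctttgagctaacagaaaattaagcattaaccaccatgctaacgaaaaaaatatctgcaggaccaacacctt
Cldn16: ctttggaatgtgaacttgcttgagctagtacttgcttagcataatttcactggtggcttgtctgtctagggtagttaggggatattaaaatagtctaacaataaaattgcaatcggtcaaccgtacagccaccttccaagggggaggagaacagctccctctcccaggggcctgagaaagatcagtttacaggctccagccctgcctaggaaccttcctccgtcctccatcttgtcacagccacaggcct
The Cldn10 window has 38.0% GC and that of Cldn16 49.2%, against a median of 51.2% over 33469 RefSeq promoters. On both strands, 4 motifs were searched. CCAAT is found in 34.0% of promoters, and of these 2 windows only that of Cldn10 holds it. The start used for Cldn10 carries no isoform name, and whether the thick limb isoform begins there was not tested. Neither window holds GGGCGG (30.5% of promoters), TATAAA (12.9%) or CACGTG (5.59%). Of the 6 claudins, 5 matched an entry of the promoter table.

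The thin ascending limb libraries did not hold the claudins evenly. Cldn10 was at 0.345, 0.826, 696, 246, 511, 165 and 0.843 RPKM in libraries 1 to 7. Cldn16 was at 50.5, 36.3 and 107 RPKM in libraries 3, 4 and 5 and at most 0.139 in the others. Cldn19 was at 249.4, 40.7 and 204 RPKM in the same 3 libraries and at most 2.61 in the others, and Cldn2 at 27.6 and 114 RPKM in libraries 4 and 7. Cldn10, Cldn16 and Cldn19 were thus high together in 3 libraries, Cldn10 without Cldn16 and Cldn19 in library 6, and none of the 3 in libraries 1, 2 and 7.

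Segment markers varied alongside them. Aqp1, the water channel of the descending limb, was at 4296 and 5273 RPKM in libraries 6 and 7, lower but present in library 4, and at most 7.88 RPKM elsewhere. Ptger3, a prostaglandin receptor of the thick limb, was at 397, 21.9 and 28.7 RPKM in libraries 3, 4 and 5, where Slc12a1 was at 36.0, 1.99 and 21.9 RPKM and Umod at most at 2.01 RPKM. The part of other segments in these claudin levels was not tested. Against mTAL, the difference of Cldn10 was 2.71 ± 0.99 (adjusted p = 0.081) and that of Cldn16 0.52 ± 0.81 (adjusted p = 0.82), both higher in mTAL.

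**Figure D3:**
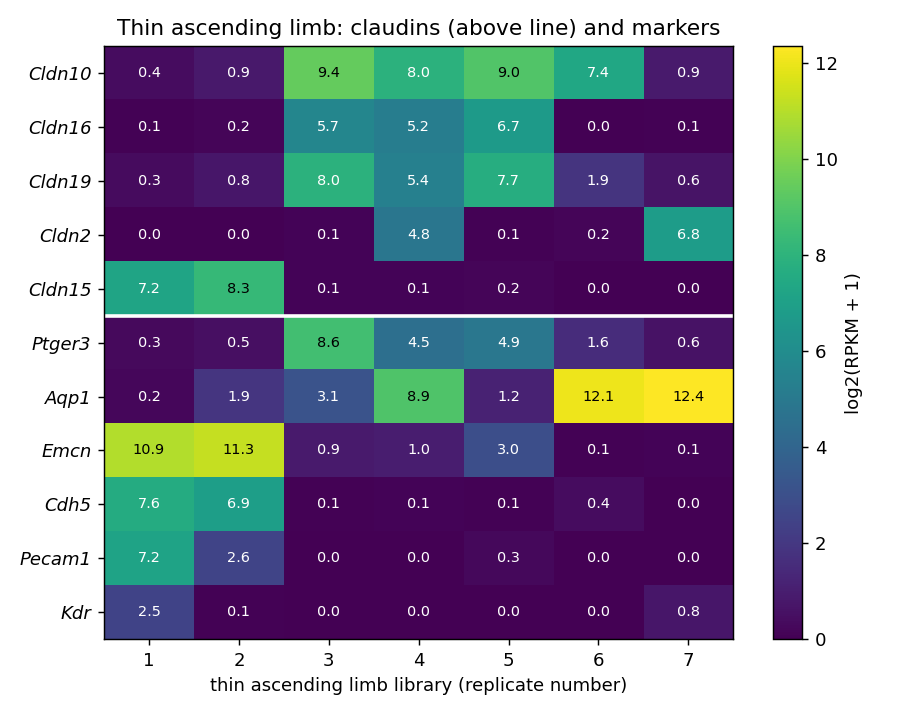
Levels of 5 claudins (above the white line) and of segment and endothelial markers (below it) in the 7 tAL libraries (columns), coloured and labelled by log2(RPKM + 1). Cldn10, Cldn16 and Cldn19 are high together in libraries 3, 4 and 5, and Cldn15 is high with Emcn and Cdh5 in libraries 1 and 2, where Kdr is low.

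Genes of the transport pathways around these claudins were read at the same steps, from lists of 17 genes for thick limb transport and 17 for divalent transport (16 tested), which share Casr, Pth1r and Fxyd2. From SDL to mTAL, 8 thick limb genes rose and none fell, at a step where 0.767% of all genes rose and 3.11% fell. The 8 genes included Slc12a1 (means 1.34 and 336 RPKM, log2 difference 7.60 ± 0.66, adjusted p = 5.6e-17) and Umod (32.8 and 2844 RPKM, 8.07 ± 1.01, adjusted p = 2.0e-09), which are also markers of this segment. The median of the thick limb transport list was 1.82 against -0.40 for all genes. From mTAL to cTAL, where Cldn16 rose, 3 divalent genes rose and none fell, at a step where 0.993% of all genes rose and 0.0361% fell. They were Casr (18.3 and 308 RPKM, 4.58 ± 0.70, adjusted p = 2.5e-06), the parathyroid hormone receptor Pth1r (1.98 and 146 RPKM, 5.37 ± 0.90, adjusted p = 2.0e-05) and the calcium pump Atp2b4 (0.00894 and 5.04 RPKM, 2.00 ± 0.41, adjusted p = 0.0012). The list's median was 0.92 against 0.55 for all genes.

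From cTAL to DCT, 3 of 17 thick limb genes fell and none rose, Slc12a1 (368 to 15.9 RPKM), Casr (308 to 34.6 RPKM) and Umod (10710 to 710.2 RPKM). Of all genes, 0.469% rose and 0.379% fell at this step. Of the 16 tested divalent genes 2 rose, the calcium buffer Calb1 (2.98 to 356 RPKM, 6.88 ± 1.05, adjusted p = 1.1e-06) and the sodium-calcium exchanger Slc8a1 (0.633 to 35.9 RPKM, 4.00 ± 0.72, adjusted p = 8.3e-05), and Casr fell. The list medians were -0.15 for the thick limb and 0.80 for the divalent genes against 0.05 for all genes. From CCD to OMCD, 4 divalent genes fell and none rose, namely Casr, Calb1, the vitamin D receptor Vdr and Slc8a1, and the list median was -1.01 against -0.59 for all genes. Of all genes, 0.0812% rose and 1.22% fell there.

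Lists of the other claudins and of the junction scaffold, 18 genes each, were read in the same way. Of 13 tested other claudins, 3 rose from S3 to SDL (Cldn23, Cldn4 and Cldn5; list median 0.41 against 0.32 for all genes), and 3 fell from SDL to mTAL (Cldn23, Cldn3 and Cldn5; -0.03 against -0.40). Of all genes, 3.57% rose from S3 to SDL and 3.11% fell from SDL to mTAL. Cldn5 in SDL was at 309, 227, 55.9 and 18.2 RPKM in libraries 5, 10, 7 and 2, and at most 0.105 in the others. Endothelial marker sums in libraries 5, 10, 7 and 2 were 133.8, 347.8, 6.07 and 129.5 RPKM. In library 1 the sum was 138.1 RPKM with Cldn5 listed at 0. The part of endothelial RNA in these Cldn5 values was not tested. From LDLOM to LDLIM, where Cldn2 fell, Cldn4 rose from 59.4 to 601 RPKM and Cldn23 fell from 223 to 49.7 RPKM. At that step 2.66% of all genes rose and 0.0451% fell. None of the 13 passed from mTAL to cTAL or from cTAL to DCT, where 1.03% and 0.849% of all genes did. Of 14 tested scaffold genes, Marveld2 (tricellulin) rose from mTAL to cTAL, from 0.604 to 8.36 RPKM (list median 0.75 against 0.55), and none passed from cTAL to DCT.

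Genes whose segment means were most like those of each claudin were ranked by Pearson's correlation of log2(RPKM + 1) over the 14 segments, as a description. Cldn16 was most like Casr (r = 0.94), the calcitonin receptor Calcr (0.93) and Wscd1 (0.92). Cldn2 was most like Ihh (0.90), Oacyl (0.90) and Fgf1 (0.89), and Cldn10 most like Vcan (0.87), Treml1 (0.86) and Pcsk6 (0.83). Cldn19 was led by Anxa6 (0.89), Sostdc1 (0.83) and Fstl3 (0.81). The profile of Cldn14 was nearest to Bai2, Kng1 and Kng1l1 (0.99 each), and that of Cldn15 to Slfn3, Zcchc24 and Jam3 (0.98 each). The last 2 sets rest on the few libraries named above, and other means were uneven too, such as 7.96 ± 21.05 RPKM for Treml1 and 15.7 ± 40.7 RPKM for Calcr in mTAL (SD, n = 7). Among the members themselves the highest correlations were those of Cldn16 with Cldn14 (0.82) and with Cldn19 (0.63). The value for Cldn14 rests on the same few libraries as its set above.

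Whether water load changed claudins of the cortical collecting duct was asked in rats all given dDAVP. Cldn19 was at 110.9, 66.7, 123.6 and 121.5 RPKM in controls and at 46.6, 53.8, 22.5 and 39.5 RPKM in water-loaded rats. The groups did not overlap, as for 2.1% of all tested genes in this direction. The difference was -1.39 ± 0.33 on the log2 scale (p = 0.00084, adjusted p = 0.18, limma). Cldn16 was at 57.8, 20.4, 83.7 and 41.1 RPKM in controls and 9.74, 16.5, 24.0 and 26.8 RPKM with water load (-1.28 ± 0.44, adjusted p = 0.50). The Cldn10 values were 6.90, 2.56, 6.42 and 0.603 RPKM against 0.631, 2.25, 0.215 and 0.662 RPKM (-1.24 ± 0.56, adjusted p = 0.66).

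None of the 3 tested members passed under limma, in a comparison where 0.153% of all genes did, while all 3 had an unadjusted p under 0.05, as did 632 of all 8490 tested genes. Cldn2, Cldn14 and Cldn15 failed the filter, with at most 1.27 RPKM in any library. None of the tested other claudins, scaffold, thick limb or divalent genes passed. The summed thick limb markers were 45.8 to 306.5 RPKM in controls and 24.7 to 115 RPKM with water load, overlapping between the groups. Their part in the Cldn16 and Cldn19 values was not tested. Aqp2, the water channel that vasopressin controls, was at 11020, 11330, 17340 and 18340 RPKM in controls and 5333, 8131, 6013 and 10660 RPKM with water load. The differences and p-values above come from the fit without pairing of rats. With same-numbered rats as a block, 29 genes passed in place of 13, and again none of the 6 claudins.

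**Figure D4:**
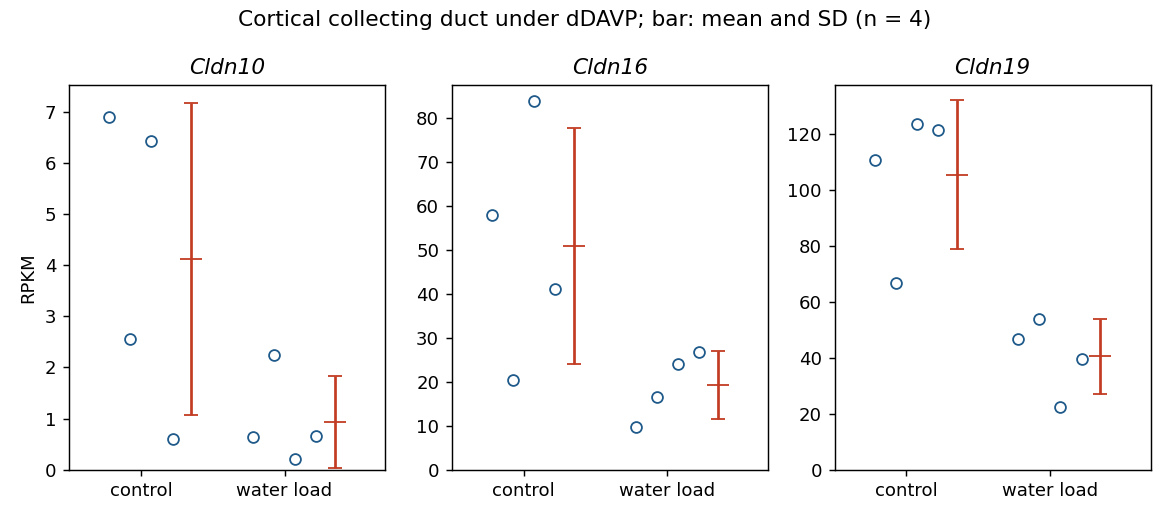
RPKM of Cldn10, Cldn16 and Cldn19 (vertical axes, from 0) in cortical collecting ducts of 4 control and 4 water-loaded rats under dDAVP (circles), with mean and SD as a bar. Cldn19 shows no overlap, 66.7 to 123.6 in controls against 22.5 to 53.8 with water load, but its adjusted p was 0.18.

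Claudin levels also depended on which deposited table was read, since the authors gave RPKM both with and without polyadenylation-site data. Over tubule libraries at 1 RPKM or more, Cldn10 was lower in the first table by nearly the same factor everywhere (ratio 0.580 to 0.587), and Cldn14 was equal in both. Cldn2 had ratios of 0.461 to 0.725. For Cldn16 the ratio ran from 0.413 to 390.6 (median 0.494), and it was at least 1 in 11 of 42 libraries. The extremes lay in CCD, where libraries 3, 9, 2 and 1 held 6.58, 18.4, 41.1 and 98.7 RPKM in the first table and 0.0168, 0.0527, 3.83 and 12.6 RPKM in the other. The Cldn16 mean in CCD was thus 19.6 RPKM in the first and 10.6 RPKM in the second. Cldn19 ratios ran from 0.399 to 8.47, the highest in cTAL library 4 (17.7 and 2.09 RPKM), and Cldn15 in tAL library 2 was at 308 and 7.67 RPKM. A constant ratio, as for Cldn10, leaves comparisons between segments alone, whereas a varying ratio does not.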

How the data were processed

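The starting point was RPKM values, which the authors deposited per RefSeq transcript for dissected tubules and glomeruli. Trimming with Trimmomatic 0.32, the aligner STAR 2.3.0-r192, HOMER, SAMtools and the build rn5 are listed in the submitters' processing notes; per the labels' protocols, libraries followed a single-cell method with paired 50 nt reads. Of 17974 entries, 503 symbols had several transcripts, and the highest by mean was kept. The table made with polyadenylation-site data was the main one; the other served as an alternative for tubules, because its glomerulus columns correlated with those of the main table at only 0.0081 to 0.015 across genes. Neither the labels nor the headers say how the sites entered the values or which gene models the water-load table used. The 7 whole-kidney samples were not analysed here.

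Values were taken as log2(RPKM + 1), and differences, the second group minus the first, understate changes of low genes. Genes at 1 RPKM or more in at least 4 libraries entered limma 3.58.1 (trended, moderated and two-sided, in R 4.3.3), p-values were adjusted by Benjamini-Hochberg over every gene of a comparison, and genes were called at an adjusted p under 0.05 and a log2 difference of at least 1 (no such limit for water load). A single model held the 14 segments, and a second added the 5 glomeruli for their comparison with S1; the 8 water-load libraries were modelled separately. Ratios to Cldn10 were compared by exact permutation. Python 3.11.15 with numpy 2.4.6, pandas 2.3.3 and matplotlib 3.10.9 made tables and plots. Promoter sequences and gene overlaps came from RefSeq tables of GRCr8, which is not the build of the files.

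The members, lists and comparisons were chosen with earlier results of these data known. Named were the 6 members, the 3 genes most like each, and, at steps where a member was called, up to 4 called genes per list by smallest adjusted p; tAL, LDLOM and distal markers named beside them were chosen after their values were seen. Of the listed genes, Cldn25, Cldn34d, Cgn, Patj, Pals1, Amotl1 and Trpm6 have no row. Marker lists covered proximal, thin limb, thick limb, DCT, principal, intercalated, podocyte, endothelial, stromal and leukocyte genes. Same-numbered water-load libraries deviated together (correlations 0.209 to 0.313 in 4 pairs), which is taken as pairing. The printed water-load differences and p-values leave this pairing out, and for the fit with it only counts of calls are given. Alternatives changed the pseudocount, filter, scaling, table, covariate, block and set of libraries.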

Additional observations from a re-analysis of the deposited data

Results flagged for a closer look

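Of 62 sets of libraries of 1 gene in 1 group that were checked, 11 held a library far from the rest. Chance gives such a library in about 1 of 20 sets of normally distributed values; RPKM values are skewed and often 0, and the share for them was not measured. For Cldn2, mTAL library 6 had 3.96 RPKM and cTAL library 5 had 4.69 RPKM, where proximal markers summed to 91.7 RPKM in that cTAL library and to at most 16.8 in the others. For Cldn14, S1 library 7 had 1.04 RPKM and DCT library 6 had 29.6 RPKM, the highest value of this gene. That DCT library also had the highest thin limb marker sum of its group, 300.3 RPKM against at most 14.7, and podocyte and endothelial sums of 41.0 and 53.5 RPKM. For Cldn15, DCT library 3 had 1.21 RPKM.

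For Cldn16, SDL library 5 had 1.99 RPKM, OMCD library 7 had 8.14 RPKM and IMCD library 5 had 2.52 RPKM. The OMCD library held proximal markers at 329.5 RPKM against at most 11.0 in the others, and thick limb markers at 250.5 RPKM against up to 249.7. For Cldn19, S2 library 6 had 4.62 RPKM, S3 library 5 had 14.0 RPKM and LDLOM library 1 had 1572 RPKM. In the S3 library, thick limb markers summed to 480 RPKM and DCT markers to 65.8 RPKM, against at most 48.2 and 0.0108 RPKM in the other S3 libraries. In the LDLOM library, proximal markers summed to 2331 RPKM against at most 256, and Slc34a1 alone gave 2329 RPKM of this. Intercalated markers summed to 551 RPKM against at most 7.20, nearly all of it Slc4a1 (550.7 RPKM). The other genes of both lists thus added little. The part of RNA from other cells in these claudin values was not tested.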

How the results depend on the processing

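With both groups of each step fitted alone, 6 step calls were made in place of 11, with fewer libraries in each fit. In the comparison of glomeruli with S1, 1 call remained at a pseudocount of 0.1, and 1 to 2 calls when each glomerulus was left out in turn, in place of 2. The other counts and ratio results kept their side of the threshold, and none reversed. With the replicate number as a block, which pairs no segments by the check of deviations (medians of -0.02 to 0.102 over the steps, single pairs up to 0.747), there were 9 step calls, 155 pair calls, 2 glomerulus calls and 0 water-load calls, and the Cldn16 ratio had a p of 0.016 by exact sign flips of 7 pairs (Cldn19, 0.25).

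Of the named differences, 199 alternative values kept their side and 18 lost a call; 10 of those 18 were Cldn16 from cTAL to DCT and from CCD to OMCD, 5 each. For these, the other table gave adjusted p of 0.22 and 0.19. The causes were not tested. For all genes, water-load calls were 0 at a pseudocount of 0.1 and without the filter, and ranged from 0 to 7 when each library was left out, against 13. Read counts are not among the files used here, and with relative depths that span 14.2-fold, a value of 0 or near 0 is a weaker statement in the shallower libraries, to an extent that cannot be given.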
